A study of Drosophila melanogaster with 36 samples.

Results

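The cytosolic ribosomal protein genes of Drosophila melanogaster were taken as every gene symbol in the count tables that begins with RpL, RpS or RpLP followed by a number and names a protein-coding gene, leaving out the mitochondrial mRp genes. The rule found 92 members among 17582 gene symbols. Of these, 54 are named for the large subunit and 38 for the small subunit. A total of 27 members form 13 sets of paralogues, taken as symbols that share a stem. The other 65 have no such copy among the members. Paralogues are duplicated genes, mostly for the same ribosomal protein, whereas RpL24-like and RpLP0-like resemble assembly factors, as described below. By the BDGP6.54 annotation, 14 members lie on the X chromosome, 19 on 2L, 21 on 2R, 14 on 3L, 23 on 3R and 1 on chromosome 4.

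Each cytosolic ribosome holds a copy of nearly every ribosomal protein, so cells make these proteins in close to equal numbers, and flies that lack 1 copy of most of these genes grow slowly and have short bristles. Ribosomal protein mRNAs are abundant in growing tissue and in the ovary, where nurse cells supply the egg with ribosomes. Several Drosophila ribosomal protein genes have a duplicate that is known for its use in the germ line, such as RpS5b in the ovary and RpL22-like in the testis.

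RNA was measured in whole wild-type flies kept in filtered air or exposed for 1 h to 330 mg/m3 of an aerosol of CMIT/MIT, a biocide mixture of chloromethylisothiazolinone and methylisothiazolinone. Males and females were taken on days 1, 2 and 7, which gave 12 groups of 3 libraries: male and female flies in air, and male and female flies exposed, at each of the 3 days. All groups share the wild-type genotype and the whole-animal sample, and the labels used here give neither the age of the flies nor what the days are counted from. The assay sequences the 3' ends of transcripts, so counts are not divided by transcript length, and a comparison of levels between genes is one of 3' end counts.

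Depth ranged from 4681333 to 17182966 counts per library. The titles give sex as M or F, and this was checked against roX1, an RNA of the male dosage compensation complex, and Yp1, a yolk protein gene. Both markers matched the title in all libraries but 2, which carried both: exposed male day 2 replicate 3 had 209.8 CPM (counts per 1e6 counts) of roX1 and 6700 CPM of Yp1, and exposed female day 2 replicate 1 had 254.2 and 6206 CPM. They are called the mixed libraries below, and results that rest on them are given with and without them. Another library, female air day 2 replicate 1, had the lowest scaling factor of all (0.732) and a summed ribosomal protein level of 406861 CPM, against 224419 and 222321 CPM in the other libraries of its group. The labels do not say that replicates came from separate cultures, so p-values measure only the spread between samples.

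Mean levels over the 36 libraries ranged from 6072 CPM for RpLP2 to 0.0331 CPM for RpL7-like, with a median of 2111 CPM. The highest 3 by 3' end counts were RpLP2, a protein of the acidic stalk that recruits translation factors, RpL41, a very short peptide of the large subunit, at 5662 CPM, and RpL3, a protein near the peptidyl transferase centre, at 5089 CPM. The lowest 3 were all duplicates: RpL22-like at 5.04 CPM, RpS28a at 1.54 CPM and RpL7-like. RpL7-like had 5 counts in all 9 female air libraries together and 1 count in the 9 male air libraries, and it was the only member below the filter on low counts in the fit of both sexes.

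The members took a larger share of all counts in females than in males. In the 17 unmixed female libraries their share of all gene counts ran from 20.1% to 30.2%, with a median of 23.8%. In the 17 unmixed male libraries it ran from 11.3% to 14.8%, with a median of 13.0%. No unmixed female library fell into the male range on any day or in either treatment. The mixed library titled male stood at 22.6%, inside the female range, and the mixed library titled female at 23.8%.

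**Figure D1:**
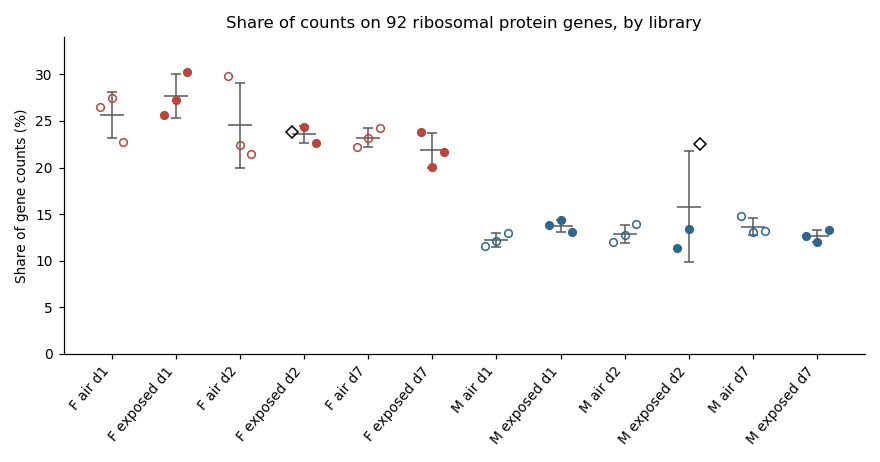
Share of all gene counts (percent, y axis) that fell on the 92 ribosomal protein genes in each of 36 libraries, by group (x axis; F female, M male, d day; open circles air, filled circles exposed, black diamonds the mixed libraries). Bars give the mean and SD of 3 libraries; unmixed females sit between 20.1% and 30.2% and unmixed males between 11.3% and 14.8%.

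Among flies in air, 84 ribosomal protein genes were higher in females and 7 were lower, so that all 91 members tested passed the threshold (edgeR's quasi-likelihood test on 36 libraries, mean of the 3 days, Benjamini-Hochberg adjusted p below 0.05). Over all 13241 genes tested, 35.9% were called higher and 50.7% lower in females, so that most genes differed by sex but the members' direction differed from that of the whole. Their median log2 fold change was 0.87, and the median of all genes tested was -0.69. The 65 members without a duplicate all lay above 0, from 0.43 for RpS27 to 1.72 for RpL41, and 63 of them lay between 0.5 and 1.3. In whole flies, more cells of a type and more RNA per cell cannot be told apart.

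The size of the shift depends on the scaling, since the sexes differ in so many genes. With DESeq2's size factors in place of edgeR's TMM factors the median was 0.50 over the members and -1.06 over all genes, and 76 members were called higher and 7 lower. The members' median stood 1.56 above that of all genes with TMM factors and 1.55 above it with size factors. A change of scaling shifts nearly all genes alike, so it could hardly move this gap. The gap did depend on which genes were tested. With the filter of 5 CPM in 3 libraries it was 1.06, from medians of 0.81 over the members and -0.24 over all genes. Without female air day 2 replicate 1 the members' median was 0.76.

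Among exposed flies the members were split in the same directions. There, 81 members were higher and 7 lower in females, against 33.9% and 52% of all 13241 genes, and the median log2 fold change was 0.61. Among the 3 members not called were RpS14b and RpLP0. Without the mixed libraries 82 were higher and 7 lower, with a median of 0.70. With DESeq2's size factors 63 were higher and 7 lower, with a median of 0.33, and RpL37a, called higher with TMM factors, turned to -0.020. Day by day, the median log2 ratio of the female to the male mean in air was 1.00 on day 1, 0.94 on day 2 and 0.61 on day 7, and in unmixed exposed libraries 0.83, 0.68 and 0.62. The day 2 value in air rested on female air day 2 replicate 1, without which it was 0.63, while leaving out each of the other 5 libraries of that day gave 0.82 to 1.09. These daily medians are given as a description, and whether the sex ratio differed between days was not tested. Change over days was tested gene by gene within each sex only, as described further on.

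**Figure D2:**
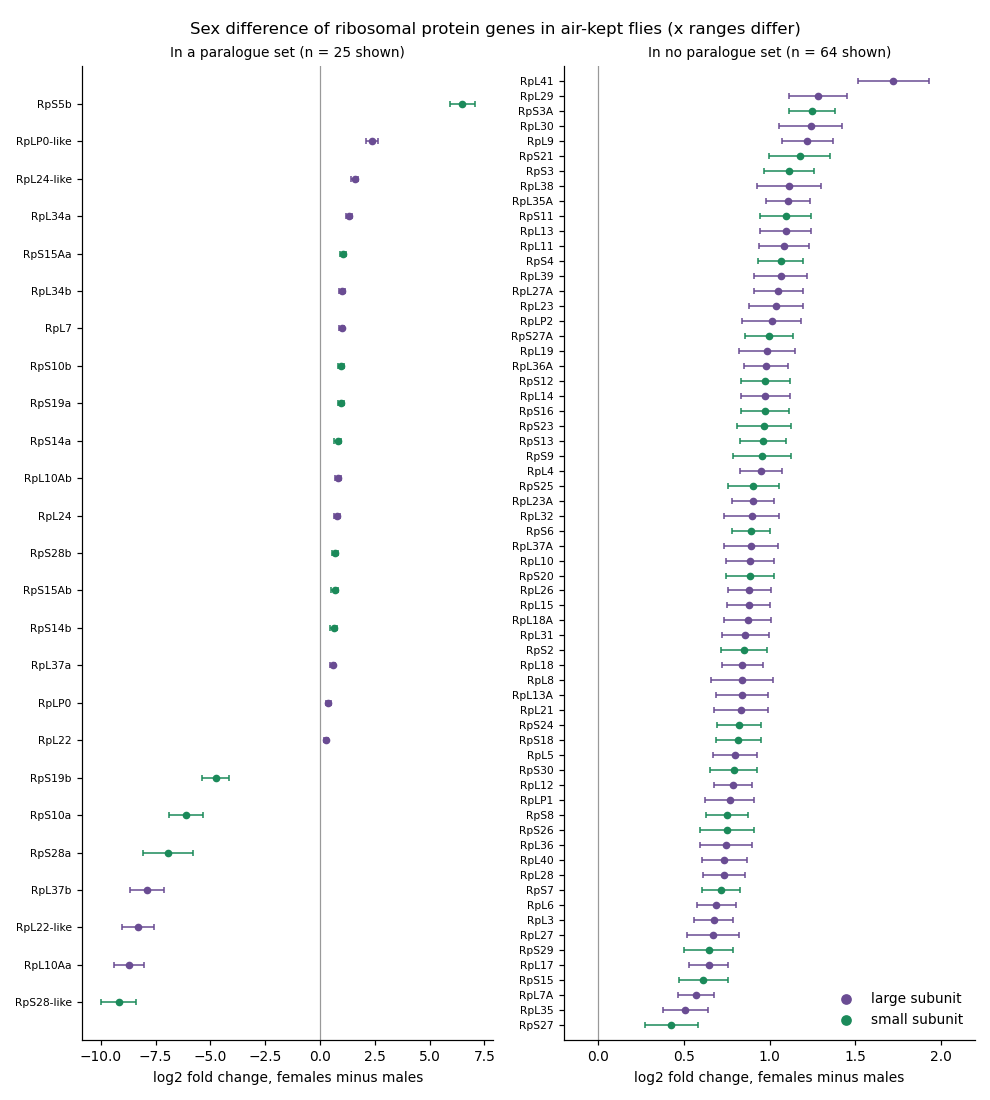
Log2 fold change of females minus males in air (x axis) for 89 of the 91 ribosomal protein genes tested (y axis), with bars of 1 standard error, split into members with a paralogue (left, n = 25 shown) and without (right, n = 64 shown); purple marks the large and green the small subunit. All 64 members shown without a paralogue lie above 0, whereas 7 members of paralogue sets lie at or below -4.75 and RpS5b lies at 6.49.

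The subunits had medians close to each other. The median log2 fold change of females minus males in air was 0.88 over 53 large-subunit members and 0.84 over 38 small-subunit members. For members with no paralogue these medians were 0.88 (n = 40) and 0.89 (n = 25). The 14 X-linked members had a median of 0.67, with 14 of 14 above 0, and the 77 others a median of 0.88. With paralogues left out the medians were 0.64 for 5 X-linked members and 0.89 for 60 others, a description over few genes with no test.

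The stalk proteins were higher in females by unequal amounts. RpLP1 ran from 4566 through a median of 5059 to 8727 CPM in the 9 female air libraries and from 2279 through 3234 to 4397 CPM in the 9 male ones, with a log2 fold change of 0.77 (SE 0.14). RpLP2 had a log2 fold change of 1.01 (SE 0.17), with ranges of 6043 to 20839 CPM in females and 2992 to 6678 CPM in males that overlapped. RpLP0, the stalk base, was among the least shifted at 0.38 (SE 0.13, edgeR adjusted p = 0.00663), and its female range of 1081 to 2933 CPM overlapped the male range of 929 to 1638 CPM.

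Members named for their roles or their fused proteins were higher in females, as were 84 of the 91 members tested. RpS6, the target of S6 kinase in the TOR growth pathway, had 1698 to 2257 CPM in females and 846.1 to 1279 CPM in males, with a log2 fold change of 0.89 (SE 0.11). RpL5 and RpL11, which bind the 5S ribosomal RNA, had log2 fold changes of 0.80 (SE 0.13) and 1.08 (SE 0.15). RpS27A and RpL40, both made as fusions with ubiquitin, had 0.99 (SE 0.14) and 0.74 (SE 0.13), and RpS30, made as a fusion with a ubiquitin-like protein, had 0.79 (SE 0.14). For RpS6, RpL5, RpL11, RpS27A, RpL40 and RpS30 the female and male air libraries did not overlap. This was common, since 65 of the 92 members had no overlap.

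The largest shifts among members without a paralogue were RpL41, RpL29 and RpS3A. RpL41 ran from 5380 through 7296 to 18062 CPM in female air libraries and from 1896 through 2481 to 3328 CPM in male ones, with no overlap (log2 fold change 1.72, SE 0.21, edgeR adjusted p = 1.49e-08). RpS3A ran from 4496 through 4839 to 5559 CPM in females and from 1753 through 2076 to 2530 CPM in males, again with no overlap (1.25, SE 0.13, edgeR adjusted p = 2.41e-09). RpL35A had 1123 to 1341 CPM in females against 443.9 to 759.3 CPM in males (1.11, SE 0.13, edgeR adjusted p = 8.97e-09).

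RpS5b, known from oogenesis, was the most female-biased member. It lies on chromosome 3R (3R:14900432-14901563, minus strand, BDGP6.54). In the 9 female air libraries RpS5b ran from 1412 through 1818 to 3462 CPM, and in the 9 male air libraries from 10.3 through 23.0 to 29.7 CPM. The log2 fold change was 6.49 (SE 0.57, edgeR adjusted p = 1.01e-10). The groups lie far apart, and only the mixed library titled male, with 1549 CPM, held a female level in a male group.

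RpS5b had 2026, 2159 and 2979 CPM in exposed females on day 1, and 1580, 1222 and 1688 CPM on day 7, so every library of day 1 lay above those of day 7. RpS5b did not pass the test of change over days in exposed females (edgeR adjusted p = 0.172). In air females its log2 fold change of day 7 minus day 1 was also negative, at -0.46 (edgeR adjusted p of any change over days = 0.613). The change of its exposure effect over days in females did not pass either (edgeR adjusted p = 0.728).

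The 7 male-biased members were all minor copies in paralogue sets: RpL10Aa, RpL22-like, RpL37b, RpS10a, RpS19b, RpS28a and RpS28-like. RpL37b is the copy of RpL37a and is a different gene from RpL37A, which encodes another large-subunit protein. RpL10Aa ran from 16.6 through 29.7 to 48.9 CPM in male air libraries and from 0 through 0.0719 to 0.190 CPM in female ones. RpL22-like ran from 4.60 through 9.72 to 12.4 CPM in males and was at 0 in 7 of 9 female air libraries, and RpS28-like, from 11.5 through 18.8 to 24.4 CPM in males, was likewise at 0 in 7 of 9. Male and female air libraries did not overlap for any of the 7, which are among the 65 of 92 members without overlap.

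Female counts of these copies were few, so ratios of summed counts per total are given with exact 95% intervals that cover counting error only. RpS28-like had 1913 counts in the 9 male and 3 in the 9 female air libraries, a ratio of 691.5 (interval 236.3 to 3356). RpL10Aa had 3227 and 8 counts, a ratio of 437.4 (221.7 to 1014). RpL22-like had 973 and 3 counts, a ratio of 351.7 (120.0 to 1708). The smallest male bias was that of RpS19b, with 972 and 41 counts and a ratio of 25.7 (18.8 to 36.1). Each of the 7 was called lower in females by edgeR, with adjusted p from 4.18e-11 for RpL10Aa to 7.42e-06 for RpS28a.

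None of the 7 made up more than 5.20% of its set in a male air library. RpL22-like had the largest share, 1.18% to 5.20% of RpL22 counts with a median of 3.84%. The median share in male air libraries was 1.59% for RpL10Aa, 1.57% for RpS10a, 1.39% for RpS28-like, 1.04% for RpS19b, 0.495% for RpL37b and 0.203% for RpS28a. The major copies RpL10Ab, RpL37a, RpS10b, RpS19a and RpS28b were all higher in females, with log2 fold changes of 0.80, 0.58, 0.96, 0.95 and 0.69. RpL22 was the least shifted member of all at 0.26 (SE 0.10, edgeR adjusted p = 0.0156), and with DESeq2's size factors its sign turned, to -0.11, with an adjusted p of 0.258.

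**Figure D3:**
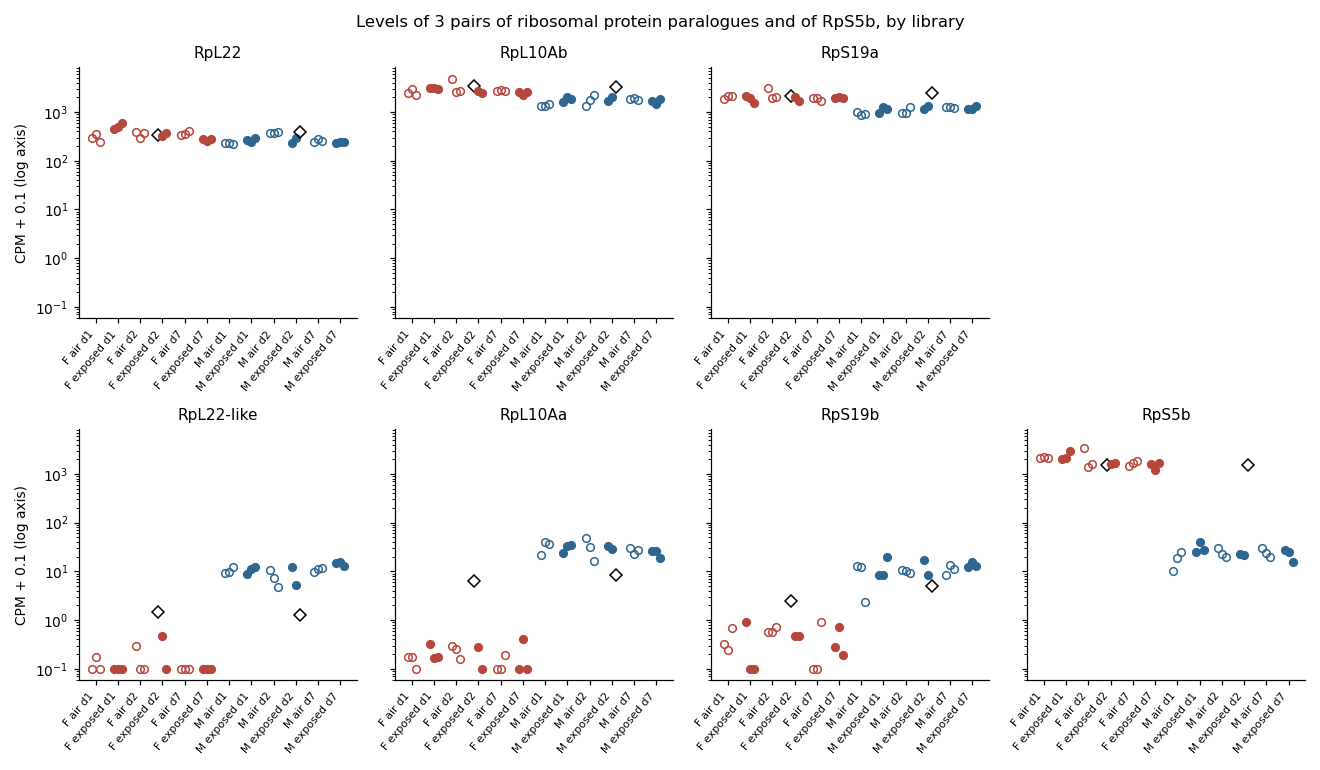
CPM + 0.1 on a log axis (y) in each of 36 libraries by group (x; F female, M male, d day; open circles air, filled circles exposed, black diamonds the mixed libraries) for the major copy (top) and the male-biased copy (bottom) of RpL22, RpL10A and RpS19, and for RpS5b (bottom right). The 9 male air libraries of RpS5b lie between 10.3 and 29.7 CPM and the mixed library titled male at 1549 CPM, near the females.

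Other pairs had no copy limited to 1 sex. RpL34a and RpL34b were both higher in females, with log2 fold changes of 1.31 and 1.01, and RpL34a held a median of 23.3% of the pair in female and 19.8% in male air libraries. RpS15Ab held a median of 2.45% of its pair in females and 3.07% in males. RpS14a and RpS14b are X-linked neighbours that encode the same protein, and reads could be split between them in counting, so their shares are uncertain: RpS14b held a median of 10.9% in females and 12.5% in males. Their log2 fold changes were 0.82 and 0.63.

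RpL24-like and RpLP0-like are relatives of yeast factors that take part in assembling the large subunit and are not known as parts of the working ribosome. Both had larger log2 fold changes than the ribosomal protein they resemble, a difference that was not tested. RpLP0-like ran from 57.0 through 79.2 to 103.8 CPM in female and from 9.36 through 16.2 to 22.5 CPM in male air libraries (log2 fold change 2.38, SE 0.26, edgeR adjusted p = 2.61e-09). RpL24-like ran from 328.4 through 387.1 to 701.6 CPM in females and from 108.5 through 159.3 to 171.9 CPM in males (1.59, SE 0.16, edgeR adjusted p = 9.8e-10), against 0.76 for RpL24. Exons of RpLP0-like overlap those of Jra, and exons of RpL24-like those of Dtd, on the other strand, and since the strand setting of the counting is not given in the sources used here, reads of the overlapping genes may be mixed. The same holds for RpL22, which overlaps lncRNA:CR42491, and RpS28-like, which overlaps CG3769, both on the same strand.

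Genes listed as builders of ribosomes were also mostly higher in females. Of 48 genes of ribosome assembly and ribosomal RNA synthesis, 46 were higher in females in air and 1 lower, with a median log2 fold change of 2.52 beside the members' 0.87, a difference that was not tested. Fib (fibrillarin, which methylates ribosomal RNA) had 2.93 (SE 0.25) and Nop60B (dyskerin, which makes pseudouridine) 4.46 (SE 0.38), with edgeR adjusted p of 7.05e-11 each. Nlp, also on the list though its part in building ribosomes was not examined, had 2.55 (SE 0.22, edgeR adjusted p = 9.77e-11). Of 72 mitochondrial ribosomal protein genes tested, 70 were higher and 0 lower, with a median of 1.55, led by mRpS28 at 1.84, mRpS10 at 1.99 and mRpL23 at 2.37.

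Translation factors were split. Of 51 tested, 33 were higher in females and 11 lower, with a median of 0.73. The smallest p-values were those of male-biased genes: eEF1alpha2, an elongation factor known from muscle and nerve, at -2.70 (SE 0.22), and eIF4E5 and eIF4E4, members of the cap-binding family, with edgeR adjusted p of 5.07e-11, 5.55e-11 and 1.48e-10. Of 32 genes of growth control and ribosomal protein stress, 21 were higher and 8 lower, with a median of 0.68. Xrp1, a transcription factor that responds to loss of ribosomal proteins, was lower in females, at -1.90 (SE 0.18, edgeR adjusted p = 1.93e-10).

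Markers of the gonads and of some other tissues separated the same libraries by sex. The summed level of 11 female germline markers ran from 6412 to 10317 CPM in female and from 177.5 to 333.6 CPM in male air libraries. That of 14 eggshell markers ran from 9375 to 26177 CPM against 4.34 to 86.0 CPM. That of 19 testis markers ran from 3093 to 5656 CPM in males and from 1.25 to 14.0 CPM in females, where can and sa were at 0 in all 9 libraries. All 11 female germline markers, all 14 eggshell markers and all 19 testis markers passed the test in those directions. The 12 accessory gland markers, 12 muscle markers and 11 neuron markers were all called lower in females. Muscle markers summed to 483.6 to 936.8 CPM in female and 2360 to 4713 CPM in male air libraries (median log2 fold change -2.20), and neuron markers to 178.7 to 380.6 CPM and 865.9 to 1901 CPM (median -2.81). Accessory gland markers summed to 2.09 to 33.8 CPM in females and 14072 to 50848 CPM in males. Midgut enzyme markers went both ways, and of 12 tested, 2 were called higher and 6 lower in females. Their sums overlapped, at 1457 to 16353 CPM in female and 2620 to 15742 CPM in male air libraries. Of 10 fat body markers, which include the yolk protein genes, 4 were called higher and 3 lower in females (median log2 fold change -0.22). Fat body markers summed to 14155 to 40858 CPM in females and 1978.5 to 5499.6 CPM in males. The part of these tissues in the ribosomal protein differences was not tested.

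Exposure was compared with air on each day within each sex, which asks whether inhaling the biocide altered ribosomal protein mRNA. No member passed the threshold in any of the 6 comparisons (edgeR's quasi-likelihood test, 85 members tested among 9893 genes in females and 91 among 12871 in males). In females on day 1, 0.091% of all genes were called higher and 0.172% lower. On day 2 these shares were 0.0202% and 0.435%, and on day 7 they were 0% and 0.0101%. In males 0% of all genes were called in either direction on each day. Members with an unadjusted p below 0.05 numbered 5, 11 and 1 in females on days 1, 2 and 7, which was 5.88%, 12.9% and 1.18% of the members against 12.7%, 9.52% and 3.28% of all genes. In males they numbered 0, 23 and 0, and the 23 of day 2 were 25.3% of the members against 21.8% of all genes. DESeq2 called 1 member in females on day 1 and 4 in males on day 2, or 1.18% and 4.44% of the members against 2.77% and 7.41% of all genes, and 0 in the other 4 comparisons.

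Females on day 1 had a small positive median, 0.10 over the 85 members against -0.0048 over all genes, with 58 above 0 and 27 below. The single member that DESeq2 called was RpL22. It had 454.3, 502.6 and 582.7 CPM in exposed females on day 1 and 292.9, 356.4 and 237.4 CPM in air, so the groups did not overlap. Its log2 fold change was 0.82 (SE 0.18), with an adjusted p of 0.06 from edgeR and 0.00231 from DESeq2, and over the alternatives run the adjusted p ranged from 0.00231 to 0.215. RpL13, RpLP0 and RpL6 came next, at 0.58 (SE 0.20), 0.59 (SE 0.23) and 0.37 (SE 0.14), with edgeR adjusted p of 0.22, 0.265 and 0.274. In the same comparison the 13 midgut enzyme markers summed to 1042 to 1461 CPM in exposed and 3433 to 5950 CPM in air libraries, with a negative log2 fold change for each of the 12 tested (median -1.52) and 0 called. Of 11 neuron markers 10 had a positive log2 fold change (median 0.68) and 1 was called higher, with sums of 285.4 to 436.4 CPM in exposed and 243.4 to 287.1 CPM in air libraries. The part of either in the RpL22 values was not tested.

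Females on day 2 had a negative median of -0.31, with 74 of 85 members below 0. Without the mixed libraries the median was again -0.31, but members with an unadjusted p below 0.05 fell from 11 to 1. With all libraries the 3 smallest p-values were those of RpL39 at -0.67 (SE 0.27), RpLP0 at -0.57 (SE 0.23) and RpLP2 at -0.77 (SE 0.33), with edgeR adjusted p from 0.437 to 0.494. RpL39 had 7937, 3398 and 3298 CPM in the 3 air libraries and 3354 (the mixed library), 3290 and 2958 CPM in the 3 exposed ones. The first air library, which stood apart in scaling, held the high value, and without it the members' median was 0.07. In that library the summed level of 13 midgut enzyme markers was 16353 CPM, against 3465 to 4039 CPM in the others of its group. Eggshell markers summed to 17631 to 18690 CPM in air and to 257.9 and 3254 CPM in the unmixed exposed libraries of that day, and the part of either in the ribosomal protein values was not tested. On day 7 the median in females was -0.03, with 37 members above 0 and 48 below.

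Males on day 1 had a median of 0.22, with 86 of 91 members above 0, yet no member had an unadjusted p below 0.05. The smallest p-values were those of RpS16 at 0.40 (SE 0.25), RpL10Ab at 0.39 (SE 0.26) and RpL3 at 0.35 (SE 0.23), with edgeR adjusted p of 1 each. The members' share of counts was 13.8%, 14.3% and 13.0% in exposed and 11.5%, 12.1% and 13.0% in air libraries. Without the mixed libraries, which are of day 2 but enter the shared estimate of the spread, the median was 0.23 and 3 members had an unadjusted p below 0.05, or 3.3% against 7.97% of all genes. On day 7 the median was -0.04.

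Males on day 2 rested on the mixed library. With it, the median was 0.40 and 80 of 91 members were above 0. Without the mixed libraries the median was -0.03, 42 of 91 were above 0, and members with an unadjusted p below 0.05 fell from 23 to 4, which was 4.4% against 7% of all genes. RpS5b shows the pattern most plainly: it had 22.3, 21.9 and 1549 CPM in the exposed males and 29.7, 23.0 and 19.3 CPM in air, with a log2 fold change of 4.53 with the mixed library and -0.11 without. RpL41 had 2868, 3270 and 11294 CPM against 1896, 2393 and 3328 CPM in air.

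**Figure D4:**
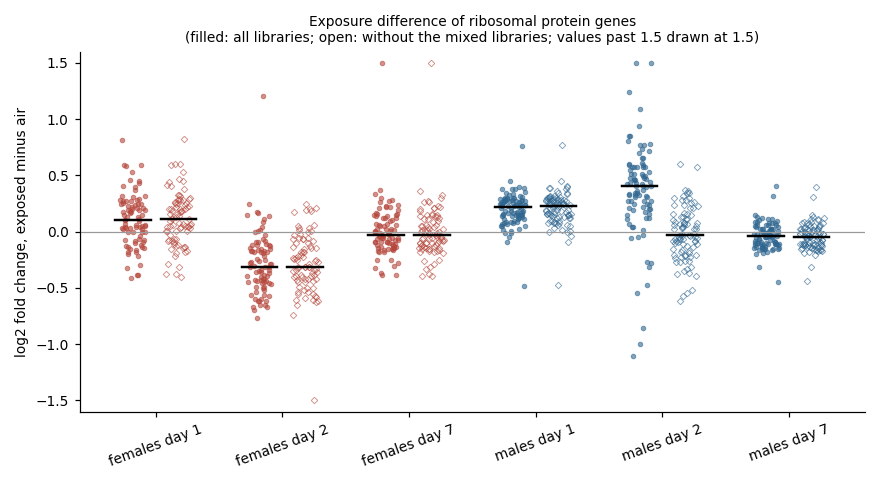
Log2 fold change of exposed minus air flies (y axis) for each ribosomal protein gene tested, in 6 comparisons by sex and day (x axis), with all libraries (filled) and without the mixed libraries (open); black lines are medians and values beyond 1.5 are drawn at 1.5. The median in males on day 2 moves from 0.40 to -0.03 when the mixed libraries are left out, and that in females on day 2 stays near -0.31. Leaving out female air day 2 replicate 1, not drawn here, made that female median positive.

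Change over days was tested within each sex and treatment, as any difference among days 1, 2 and 7. In exposed females 2 members passed, against 3.68% of all 9893 genes. RpL22 fell from 454.3, 502.6 and 582.7 CPM on day 1 to 335.4, 320.0 and 366.2 CPM on day 2 and 284.3, 256.3 and 277.6 CPM on day 7, with no overlap between the days. Its log2 fold change of day 7 minus day 1 was -0.97, with an edgeR adjusted p of 0.0122, and of 0.0193 without the mixed libraries. RpL13 went from 2804, 3281 and 3773 CPM on day 1 to 2132, 1712 and 1922 CPM on day 7, with a log2 fold change of -0.84 and an edgeR adjusted p of 0.0438, which became 0.0629 without the mixed libraries. Of the 85 members, 67 had a negative log2 fold change of day 7 minus day 1, with a median of -0.27 against 0.0006 for all genes. Summed markers of other tissues stood at other levels in the same libraries. The 13 midgut enzyme markers summed to 1042 to 1461 CPM in exposed females on day 1 and to 3542 to 4043 CPM on day 7, where 12 of the 12 tested had a positive log2 fold change and 1 passed the test. The 14 eggshell markers summed to 10413 to 15839 CPM on day 1 and to 18285 to 23265 CPM on day 7. On day 2 they summed to 257.9 and 3254 CPM in the 2 unmixed exposed libraries. Of the 14, 10 passed the test of any change among days 1, 2 and 7. Of 11 neuron markers, 0 had a positive log2 fold change of day 7 minus day 1. The part of these tissues in the ribosomal protein values was not tested.

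Single libraries decided these calls. Without exposed female day 1 replicate 3, which had the highest RpL22 and RpL13 values, 0 members passed, and without each of 6 other exposed female libraries 1 passed. DESeq2 called 6 members, or 7.06% against 8.62% of all genes. The assembly, translation factor and growth control lists each had 2 genes passing, a larger share than 2.35% of members and 3.68% of all genes. No difference between these shares was tested, and of 72 mitochondrial ribosomal protein genes 1 passed. Of 48 assembly genes 2 passed, Non1, a nucleolar GTPase, at -0.66 (edgeR adjusted p = 0.0296) and Rrp1 at -0.98 (edgeR adjusted p = 0.0352). The list held Rrp1 by its name, and in Drosophila it is a DNA repair protein. Of 43 translation factors 2 passed, eIF3c at -0.63 and eRF1 at 0.73, and of 32 growth control genes 2 passed, Sesn (sestrin, an inhibitor of TOR) at 3.88 and foxo at 1.10. Sesn had 0 counts in exposed female day 1 replicates 1 and 3, so the size of its change is uncertain.

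In air females 0 members passed, against 0.131% of all genes. There, 10 members had an unadjusted p below 0.05, or 11.8% against 14% of all genes, and DESeq2 called 2, or 2.38% against 3.35%. RpL22 in air females stood at 292.9, 356.4 and 237.4 CPM on day 1, 387.1, 296.3 and 377.2 CPM on day 2 and 337.3, 353.1 and 412.4 CPM on day 7, so the days overlapped. The test of whether the exposure effect changed over days in females called 0 members by edgeR, against 0.445% of all genes, with 7 at an unadjusted p below 0.05 (8.24% against 10.7% of all genes) and 2 called by DESeq2 (2.35% against 2.49%). RpL22 had the smallest p, with a difference in log2 effect of -1.20 between day 7 and day 1 (edgeR adjusted p = 0.0726), and over the alternatives run its adjusted p ranged from 0.00238 to 0.201.

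In air males 0 members passed, against 0.155% of all 12871 genes, with 3 at an unadjusted p below 0.05, or 3.3% against 8.31% of all genes, and 0 called by DESeq2. Without the mixed libraries, which enter the shared estimate of the spread, 2 of 91 members passed, which is 2.2%, against 2.7% of all 13216 genes tested in that fit. Among them was RpL22, with an edgeR adjusted p of 0.0357. RpL22 had 227.0, 235.8 and 225.5 CPM on day 1, 367.8, 375.9 and 384.8 CPM on day 2 and 238.8, 282.3 and 248.8 CPM on day 7, so day 2 stood above both other days. The summed level of 12 accessory gland markers in the same libraries was 36728 to 50848 CPM on day 2, against 14072 to 18518 CPM on day 1 and 19313 to 22920 CPM on day 7, and its part in the RpL22 values was not tested. In exposed males 1 member passed, RpS5b (edgeR adjusted p = 0.0357), against 0.855% of all genes, and without the mixed libraries 0 passed and 0 had an unadjusted p below 0.05. The exposure effect in males changed over days for 0 members by edgeR and 0 by DESeq2, with 3 at an unadjusted p below 0.05 (3.3% against 7.65% of all genes), and 0% of all genes passed.

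**Figure D5:**
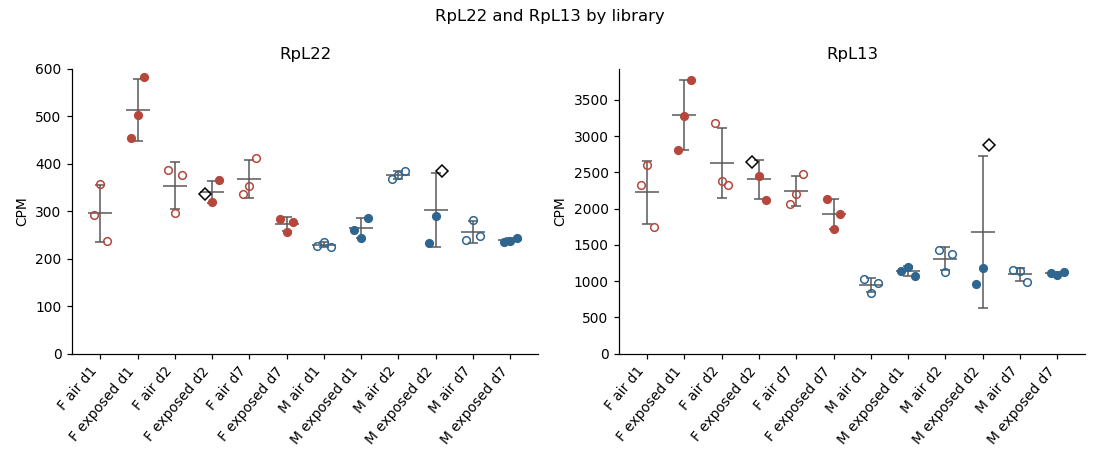
CPM of RpL22 (left) and RpL13 (right) in each of 36 libraries (y axis) by group (x axis; F female, M male, d day; open circles air, filled circles exposed, black diamonds the mixed libraries), with the mean and SD of 3 libraries. RpL22 is highest in exposed females on day 1, at 454.3 to 582.7 CPM, and on day 2 in air males, at 367.8 to 384.8 CPM, exceeds the other air males.

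The exposure effect was also compared between the sexes. On day 1, 0 members passed by edgeR, with 1 at an unadjusted p below 0.05 (1.1% against 8.04% of all genes) and 0 called by DESeq2, against 0% of all 13241 genes called higher and 0.0151% lower. That 1 member was RpL22, whose effect was larger in females by 0.59 (SE 0.24, edgeR adjusted p = 0.535). On day 7, 0 members and 0% of all genes passed in either direction, with 0 members at an unadjusted p below 0.05 and 0 called by DESeq2. On day 2, 2 members passed with a higher effect in females, against 7.76% of all genes, and 7 with a lower one, against 4.47%. Each exposed group of that day holds 1 mixed library, and without them 0 members passed and 0% and 0.0808% of all genes did, with 6 members at an unadjusted p below 0.05, which was 6.59% of the members against 7.27% of all genes.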

How the data were processed

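The deposited files hold unnormalized read counts per gene symbol for 36 libraries. Per the submitters' processing notes the authors used fastp, STAR and HTSeq with the dm6 genome, and no source used here gives versions, the annotation release or the strand setting. Libraries were made with a 3' end kit, per the labels' protocols. Each file had 17582 gene symbols and 1 blank entry, which was left out and held at most 0.000107% of a library. Coordinates of the members come from the BDGP6.54 annotation through their symbols, 2 of the 92 (RpL37a and RpL37b) through older symbols, and no sequences are shown.

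The counts entered quasi-likelihood F tests of edgeR 4.0.16 (R 4.3.3) with TMM factors and a prior count of 0.125, after filterByExpr at its settings of 10 counts per library and 15 in total. Exposure and day contrasts used the 18 libraries of each sex, and sex contrasts all 36. Benjamini-Hochberg adjustment ran over all genes tested in each comparison, and the threshold was 0.05. CPM values use TMM factors over all 36 libraries, except roX1 and Yp1, which use library totals. Intervals are exact binomial intervals at 95%. PCR copies are not independent molecules, so intervals cover counting error only.

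Genes named were every paralogue, up to 6 members per direction past the threshold with the smallest p (3 where fewer passed), the 3 highest and lowest in level and up to 3 of each other list; further members named for their roles were chosen after their values were seen. The values of some members are not reported here. The members, gene lists and tests were chosen with earlier results of these data known. Mixed libraries had over 100 CPM of roX1 and over 1000 CPM of Yp1. Alternatives were DESeq2 1.42.0, its size factors, TMM factors from genes that are not members, a filter of 5 CPM in 3 libraries or none, leaving out the 2 mixed libraries or each library, a replicate block, and a threshold of 1.5-fold with p below 0.05. Scaling by library totals was added after seeing the data. Replicates differed by at least 9.94 in chi-square per degree of freedom, so none was counted as a repeat. The fits were tested on simulated data.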

Additional observations from a re-analysis of the deposited data

Results flagged for a closer look

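For 9 ribosomal protein genes the exposure effect on day 2 differed between females and males by the test of the difference itself (edgeR, fit of all 36 libraries). The difference in log2 effect, females minus males, was -4.90 for RpS5b, 7.39 for RpS28-like, -1.70 for RpL41, 4.39 for RpL10Aa, -1.27 for RpL24-like, -1.11 for RpL11, -1.16 for RpL39, -1.37 for RpL38 and -0.94 for RpS19a, with adjusted p from 0.0175 to 0.0469. Each exposed group of that day holds 1 mixed library. Without the mixed libraries the same differences were -0.29 for RpS5b, -0.84 for RpL41, -0.30 for RpL10Aa, -0.85 for RpL24-like, -0.59 for RpL11, -0.79 for RpL39, -0.97 for RpL38 and -0.63 for RpS19a, and 0 of the 9 passed, with edgeR adjusted p from 0.629 to 1. RpS28-like had 26 counts in the mixed library titled female and 0 in the other exposed females of that day, so no difference is given for it without that library. No group of 3 libraries was tested for single outlying values.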

How the results depend on the processing

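The spread between 3 libraries per group limits the exposure comparisons: replicates differed by 9.94 to 288.8 in chi-square per degree of freedom. The 2 mixed libraries limit those of day 2, and depth limits the rare copies, such as RpS28-like with 3 counts in the 9 female air libraries. Of 2939 values recomputed under an alternative, 2711 kept their direction and side of the threshold or lay within 1.5 times or 1 SD, and 14 changed sign. Among the recomputed counts of members called, 258 stayed within 1.5 times and 54 moved further, or to or from 0. The sex counts in air ran from 83 with DESeq2 size factors to 91, and those in exposed flies from 70 to 90, except 58 (51 higher, 7 lower, against 29.7% and 49.7% of all genes) at the threshold of 1.5-fold and p below 0.05. At that threshold members called for exposure numbered 2 in females on day 1 (2.35% against 9.63% of all genes), 9 in females on day 2 (10.6% against 7.09%) and 20 in males on day 2 (22% against 21.4%), and for the difference between sexes 1 on day 1 (1.1% against 7.95%) and 31 on day 2 (34.1% against 28.6%). DESeq2 called 1 member for exposure in females on day 1 and 4 in males on day 2, over days 2 in air females, 6 in exposed females and 2 in exposed males, and 2 for the change of effect over days in females, against 2.77%, 7.41%, 3.35%, 8.62%, 5.69% and 2.49% of all genes, a smaller share of the members each time (1.18%, 4.44%, 2.38%, 7.06%, 2.22% and 2.35%). DESeq2 size factors gave 4 for the difference between sexes on day 2, or 4.4% against 8.6%. With no filter 1 member was called for exposure in females on day 1, 1 in males on day 2 and 1 for the change of effect over days in females (1.09% of the members each, against 0.766%, 1.33% and 1.04% of all genes), and with the filter of 5 CPM 0 over days in exposed males. Without the mixed libraries 1 member was called over days in exposed females, 2 in air males, 0 in exposed males and 0 for the difference between sexes on day 2.

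Deviations from group means were correlated between libraries of like replicate numbers. The correlations ran from -0.078 to 0.282 for exposed and air, -0.211 to 0.544 for the sexes and -0.152 to 0.216 for days. With 3 libraries per group they cannot settle whether like numbers pair libraries. With a replicate block 1 member was called over days in exposed females, 0 in exposed males and 0 for the difference between sexes on day 2, and 90 and 86 for sex in air and exposed flies.

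Leaving out each library in turn gave 0 to 2 members over days in exposed females, 0 to 2 for the change of effect over days in females (2 without female air day 2 replicate 1) and 0 to 2 in males. It gave 0 to 28 for exposure in males on day 2 and 0 to 30 over days in exposed males, both highest without exposed male day 2 replicate 1, where the mixed library is 1 of 2 left. It gave 0 to 31 for the difference between sexes on day 2. In the other comparisons these refits moved no count by over 1.5 times.

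Signs turned, each with an adjusted p above 0.05, for RpL22 in air (-0.11) and in exposed flies for RpL37a (-0.020), RpLP0 (-0.11) and RpS14b (-0.0051), females minus males, with DESeq2 or its size factors. They also turned for RpS5b for exposure in males on day 2 (-0.11) and RpL10Aa for the difference between sexes on day 2 (-0.30) without the mixed libraries. Leaving out 1 library at a time, RpLP2 for exposure in females on day 2 ran from -1.05 to 0.059 (without female air day 2 replicate 1), RpS5b for exposure in males on day 2 from -0.11 to 5.10, and RpS28a for the difference between sexes from -0.027 (without exposed female day 1 replicate 3) to 4.33 on day 1 and from -4.65 to 0.16 (without female air day 7 replicate 1) on day 7. The cause of these changes was not tested.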
